A study of Mus musculus with 5 samples.

Results

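The probes described here measure the microRNAs of the paralogs of the miR-17-92 cluster: the miR-106a cluster and the miR-106b-93-25 cluster. They were chosen by probe ID, as 5 of the 171 microRNA probes of the arrays: 1org-106a, 2org-106, 1org-106b, 1org-93 and 2org-25. Probe 2org-106 was read as miR-106a. The annotation gave a single gene for 1org-93 (miR-93) and 2org-25 (miR-25) and none for the other probes, whose names rest on the number in the ID. Each of 5 microarrays of 2 channels set total RNA of activated mouse CD4+25- T cells, helper T cells without the CD25-positive fraction, against RNA of CD4+25- T cells that had not been activated, called naive here. Activation lasted overnight (1 array, activated RNA in Cy5), 3 days (2 arrays of opposite dye) or 10 days (2 arrays of opposite dye). The labels do not state strain, age, the activating agent, how many animals were pooled, or whether a dye pair held separate extracts. In such bulk RNA, a smaller share of cells that hold a microRNA and less of it per cell cannot be told apart.

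MicroRNAs are short RNAs that lower the output of messenger RNAs, which they find mainly through their seed, bases 2 to 8. Clusters of the miR-17 kind are cut from 1 shared primary transcript and are known from dividing lymphocytes and from lymphoma. The miR-17-92 cluster is known to promote the growth and survival of T cells, and its paralogs are known to repress some of the same targets, such as the cell cycle inhibitor Cdkn1a (seed of miR-17) and the death factor Bcl2l11 (seed of miR-25 and miR-92).

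The mature sequences show which members carry the same seed and how few bases part them. They are RefSeq's for GRCm38.p6, with the seed in capitals.
miR-106a-5p, chrX:52742541-52742563, minus strand: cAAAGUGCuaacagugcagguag
miR-106b-5p, chr5:138165787-138165807, minus strand: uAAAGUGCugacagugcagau
miR-93-5p, chr5:138165574-138165596, minus strand: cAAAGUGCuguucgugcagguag
miR-25-3p, chr5:138165332-138165353, minus strand: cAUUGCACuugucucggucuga
miR-17-5p, chr14:115043684-115043706, plus strand: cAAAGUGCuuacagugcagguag
miR-20a-5p, chr14:115044183-115044205, plus strand: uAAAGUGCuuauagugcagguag
miR-92a-3p, chr14:115044476-115044496, plus strand: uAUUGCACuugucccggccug
The last 3 are of the miR-17-92 cluster and are shown for comparison. The probes' own sequences were not analysed here.

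Of the 5 members, 4 carry the seed AAAGUGC, as do probes 2org-17-5p and 1org-20. Probe 2org-25 carries AUUGCAC, as do 1org-92 and 2org-32. Counted from the 5′ end, miR-106a-5p differs from miR-17-5p by 1 of 23 bases (A10U), and from miR-106b-5p by 3 of the 21 they share (C1U, A10G, G20A). It differs from miR-93-5p by 4 bases (A10G, A11U, C12U, A13C). MiR-25-3p differs from miR-92a-3p by 3 of 21 bases (C1U, U14C, U18C). How far a probe for one also binds another was not tested.

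The miR-106a cluster holds 6 hairpins within 875 bases of chromosome X (52741693 to 52742567), and the miR-106b-93-25 cluster holds 3 within 498 bases of chromosome 5 (138165321 to 138165818). All 3 lie inside the gene Mcm7 (138164583 to 138172111), which encodes a subunit of the helicase that unwinds DNA for replication. Of the miR-106a cluster, the arrays had probes read as miR-106a, and none for miR-363. Mature miR-92a-3p is the same sequence from chromosome 14 and from chromosome X (chrX:52741854-52741874), so probe 1org-92 cannot be assigned to 1 cluster.

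The values are the authors' deposited log ratios, read as log2, and every fold rests on that reading. Arrays with the activated RNA in Cy3 (channel 1) were multiplied by -1, so that positive means higher in activated cells. That rests on a ratio of Cy5 over Cy3, the usual order, which gives activated over naive on 3 arrays, but no source states it. With Cy3 on top, all directions turn. Before turning, the arrays of a dye pair correlated across probes at r = -0.66 (day 3) and r = -0.43 (day 10). Arrays of different times with the same dye orientation correlated at 0.27 to 0.47. After turning, arrays of different time and dye correlated at 0.18 and 0.08 between days 3 and 10, and the overnight array at -0.09 and -0.15 with the Cy3 arrays of days 3 and 10. The array medians after turning ran from -1.75 (overnight) to 1.42 (day 3, activated RNA in Cy3). Each value is therefore given as deposited and centred, with the array's median at 0, and ranks and differences within an array, which no centring alters, are given beside them. As a check of activation, miR-155 (1org-155), known to be induced on activation, stood at 0.05 overnight, 4.88 at day 3 and 0.35 at day 10. Probe 1org-150, numbered as miR-150 of resting lymphocytes, stood at -0.28, -5.24 and -1.28 at these times. Both were thus far from 0 at day 3 and near 0 on the overnight array as deposited (1.80 and 1.47 after centring). Of 8 probes for lymphocyte microRNAs (these, miR-142 and miR-181), 0 were at least 2-fold higher and 5 lower overnight. At day 3, 1 was higher and 6 lower, and at day 10, 0 were higher and 4 lower. Of 16 probes for microRNAs known from other cell types, 2 were higher and 12 lower overnight. At day 3, 2 were higher and 0 lower, and at day 10, 0 were higher and 5 lower. Their centred medians were -0.20, 0.01 and -0.27. After centring, 1org-200a (2.62), 1org-200b (2.83), 2org-200c (3.17) and 1org-206 (1.97) stood at least 2-fold higher overnight. These were 4 of the 16, against 21.6% of all 171 probes. The part of this in the members' overnight values was not tested. A log ratio gives no level, so whether any of these microRNAs was above background is unknown.

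Within the arrays, the 5 members ranked higher overnight and at day 10 than at day 3. At day 10, 4 ranked lower than overnight, and 1org-106b, at 44 overnight and 37 and 29 at day 10, did not. Rank 1 is the probe with the highest activated over naive ratio of its array, and 171 the lowest. Overnight the members held ranks 2 to 44. On the day 3 arrays they held ranks 49 to 153 (activated RNA in Cy5) and 102 to 151 (Cy3). On the day 10 arrays the ranks were 29 to 64 (Cy5) and 26 to 100 (Cy3). All 5 lay above the middle rank overnight and on the Cy5 array of day 10, 4 of 5 on its Cy3 array, and 1 and 0 of 5 on the Cy5 and Cy3 arrays of day 3. On the other side of the middle rank were 2org-106 at day 3, at rank 49 on the Cy5 array, and 2org-25 at day 10, at rank 100 on the Cy3 array. The overnight order comes from 1 array without its dye swap.

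**Figure D1:**
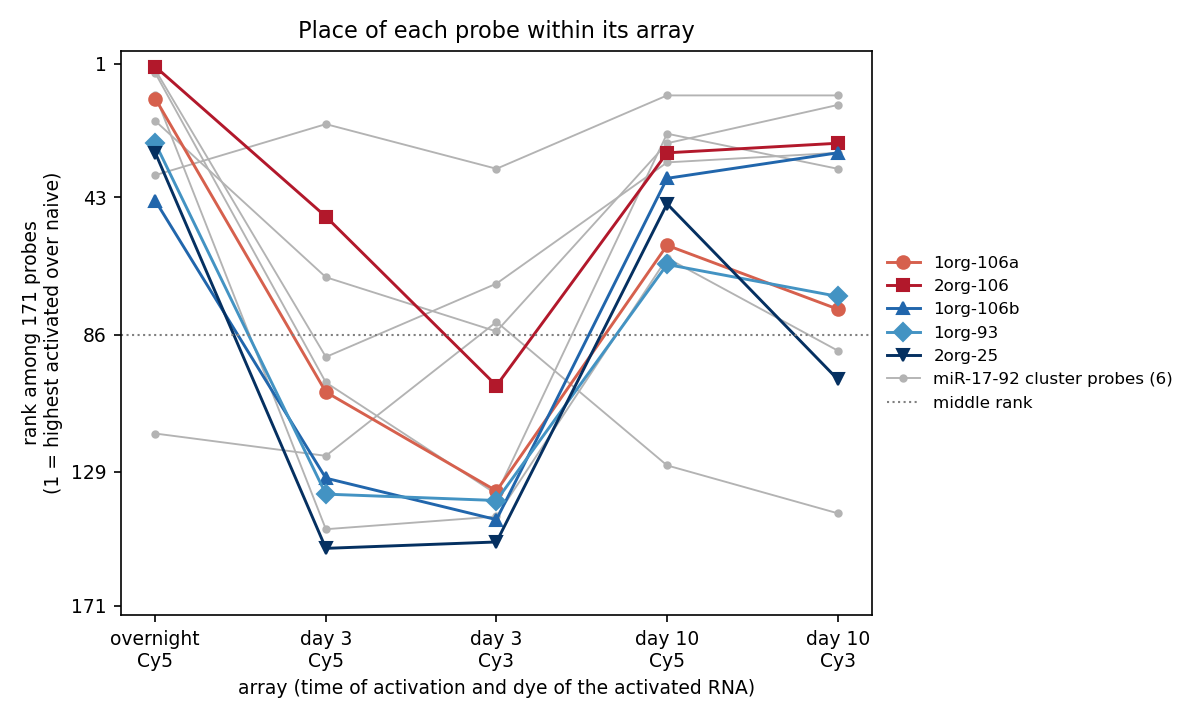
Rank of each probe among 171 on each array (1 is the highest activated over naive ratio), by time and by dye of the activated RNA, with the 5 members in colour and 6 miR-17-92 cluster probes in grey. The members lie at ranks 2 to 44 overnight, 49 to 153 on the day 3 arrays and 26 to 100 on the day 10 arrays.

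Probe 2org-106, read as miR-106a, was the member with the highest ratio on all 5 arrays. Its log2 ratio was 2.75 overnight (6.72-fold), 1.24 and 1.14 on the day 3 arrays (Cy5, then Cy3) and 0.95 and 0.59 on the day 10 arrays. All 5 values were above 0, and the single overnight value was above the other 4. The pair means were 1.19 ± 0.05 at day 3 (2.28-fold) and 0.77 ± 0.18 at day 10 (1.70-fold), where ± is the distance of either array from the pair mean (n = 2 arrays of opposite dye). This distance holds the dye effect, which the mean cancels, and is no standard error. After centring the values were 4.50 overnight, 0.38 ± 0.66 at day 3 and 1.22 ± 0.25 at day 10. The day 3 ratio thus stood above 2-fold as deposited and at 1.30-fold after centring, with opposite signs on the 2 arrays (1.04 and -0.28).

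The other miR-106a probe, 1org-106a, ran lower than 2org-106 on every array. Its log2 ratio was 0.73 overnight, -0.09 and -0.03 on the day 3 arrays, and 0.00 and -0.29 on the day 10 arrays. The overnight value was above the other 4, and the day 3 and day 10 pairs overlapped. After centring it was 2.48 overnight, -0.87 ± 0.58 at day 3 and 0.30 ± 0.21 at day 10. Within the array, 2org-106 exceeded 1org-106a by 2.02 overnight, by 1.33 and 1.17 at day 3, and by 0.95 and 0.88 at day 10, with a mean over times of 1.39 ± 0.57 (SD, n = 3 times). Either array of a pair lay at most 0.18 from the pair mean of each probe as deposited, and up to 0.66 after centring. The gap itself, which centring does not alter, differed by at most 0.08 between either array of a pair and its mean. The value given for miR-106a therefore depends on which of the probes is read.

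In the miR-106b-93-25 cluster, 1org-106b had ratios of opposite sign at day 10 and day 3, each within a pair of close values. Its log2 ratio was -0.97 overnight, -0.66 and -0.73 on the day 3 arrays, and 0.60 and 0.51 on the day 10 arrays. Both day 10 values lay above all 3 earlier values. The pair means were -0.69 ± 0.04 at day 3 (1.62-fold lower) and 0.55 ± 0.05 at day 10 (1.47-fold higher), both under 2-fold. After centring they were -1.50 ± 0.65 and 1.00 ± 0.11, beside 0.77 overnight, so that the overnight value changed sign with centring.

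Probe 1org-93 (miR-93), whose seed is that of miR-106b, stayed under 2-fold on all 5 arrays as deposited. Its log2 ratio was -0.09 overnight. It was -0.89 and -0.22 on the day 3 arrays, and -0.17 and -0.26 on the day 10 arrays. All 5 values were below 0, and the pairs of days 3 and 10 overlapped. The pair means were -0.56 ± 0.33 and -0.21 ± 0.04. After centring it was 1.66 overnight (3.16-fold higher), -1.37 ± 0.28 at day 3 (2.58-fold lower) and 0.23 ± 0.11 at day 10.

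The lowest day 3 ratio among the members was that of 2org-25 (miR-25), the member with the other seed. Its log2 ratio was -0.22 overnight, -1.89 and -1.39 on the day 3 arrays, and 0.34 and -0.56 on the day 10 arrays. Both day 3 values lay below the other 3, and the day 10 arrays had opposite signs. The pair means were -1.64 ± 0.25 at day 3 (3.12-fold lower) and -0.11 ± 0.45 at day 10. After centring the ratio was 1.53 overnight, -2.45 ± 0.36 at day 3 (5.47-fold lower) and 0.34 ± 0.51 at day 10.

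**Figure D2:**
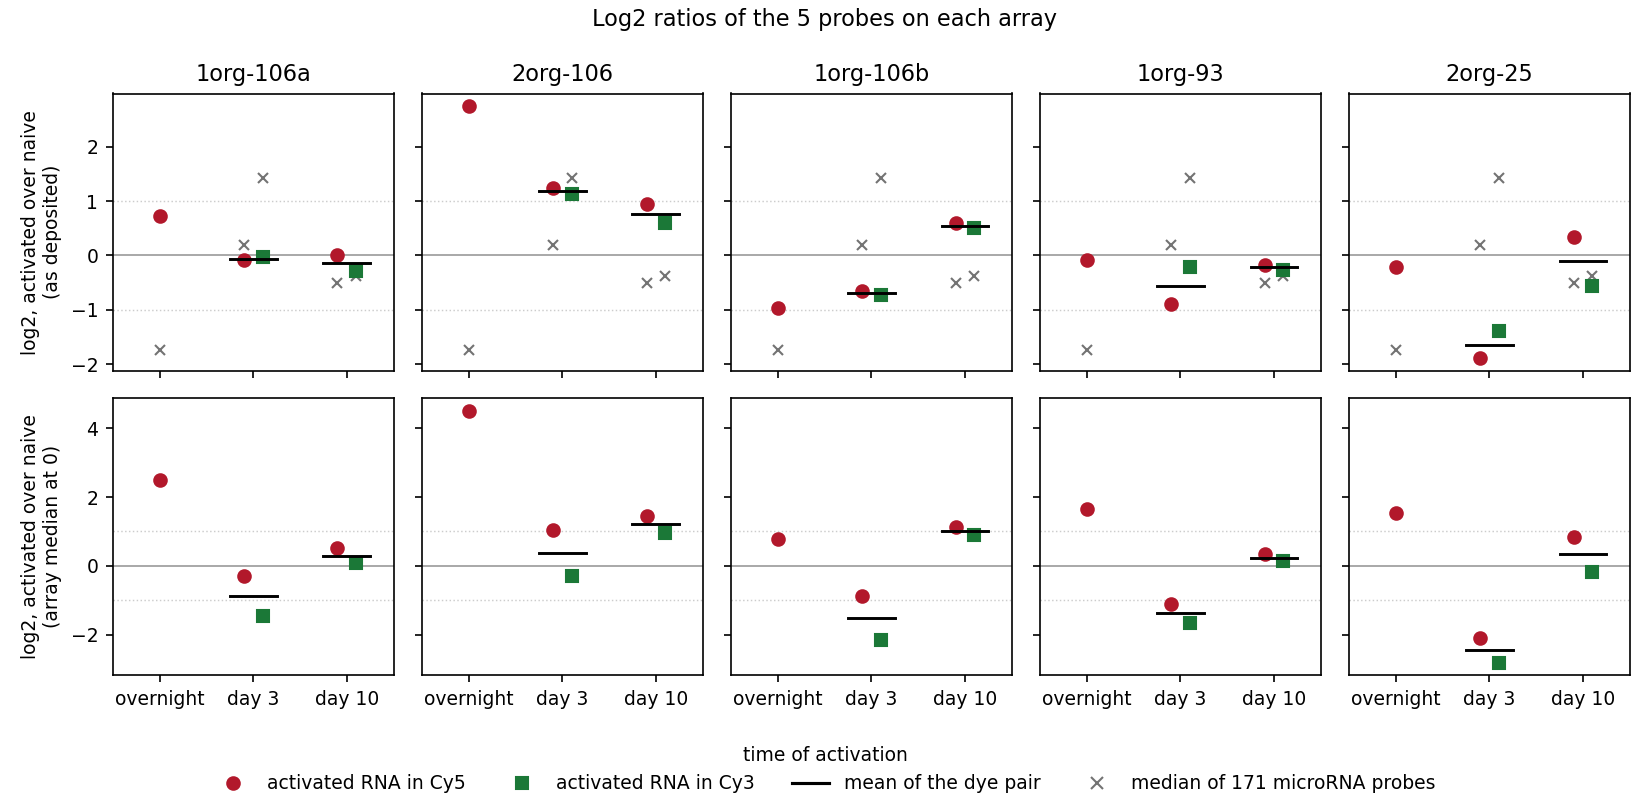
Log2 ratio, activated over naive, of each of the 5 probes (columns) on each array by time, as deposited (upper row) and with the array median at 0 (lower row). Points are arrays, coloured by the dye of the activated RNA, bars are means of a dye pair, crosses are the median of 171 probes, and dotted lines mark 2-fold; 2org-106 lies above 0 on all 5 arrays as deposited, and 2org-25 lies at -1.89 and -1.39 at day 3.

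Counted over all members, few were 2-fold from 0 as deposited, and the counts moved with centring. A probe counted where its ratio, or pair mean with the same sign on both arrays, was at least 1 from 0 on the log2 scale. Overnight 1 of 5 was higher (2org-106) and 0 lower, where 4.09% of all 171 probes were higher and 73.1% lower. After centring 4 were higher, all but 1org-106b, and 0 lower, against 21.6% and 4.09% of all probes. At day 3, 1 was higher (2org-106) and 1 lower (2org-25), against 38.0% and 12.9% of all probes, and after centring 0 were higher and 3 lower (1org-106b, 1org-93, 2org-25), against 15.2% and 19.9%. At day 10 none was 2-fold from 0, where 9.94% of all probes were higher and 17% lower, and after centring 2 were higher (2org-106 and 1org-106b) and 0 lower, against 14.6% and 4.09%. The members' medians were -0.09, -0.56 and -0.11 overnight, at day 3 and at day 10, beside -1.75, 0.83 and -0.56 for all probes, and 1.66, -1.37 and 0.34 after centring, beside 0.00, 0.02 and -0.12.

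These values were tested with limma in a model of all 5 arrays that held the times and the dye. Its p-values, adjusted over all 171 probes, reflect how far arrays scatter, pooled over these probes, and that scatter may be technical. Limma gave every probe the same SE for a given comparison, so the p-values do not measure how far a member's own arrays scatter. The probes share the 5 arrays and are not separate replicates. Overnight, 2org-106 passed at a log2 ratio of 2.63 ± 0.71 (SE, limma adjusted p = 0.0046), where 1.75% of all probes passed as higher. After centring 2org-106 (4.04, adjusted p = 3.2e-08) and 1org-106a (2.08, adjusted p = 0.013) passed, against 6.43% of all probes. The overnight term rests on 1 array, assumed to vary like the others. At day 3, 2org-106 passed as higher (adjusted p = 0.02) and 2org-25 as lower (adjusted p = 0.0011), where 39.2% of all probes passed as higher and 12.9% as lower. After centring 0 members passed as higher, against 18.1%, and 1org-106b (adjusted p = 0.00049), 1org-93 (0.0015) and 2org-25 (9.8e-09) passed as lower, against 21.1%. At day 10 no member passed as deposited, where 7.02% of all probes passed as higher, and after centring 2org-106 passed (1.22 ± 0.38, adjusted p = 0.013), against 14.0%.

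Day 10 stood above day 3 for 2 members of the miR-106b-93-25 cluster. By the rule of at least 1 between the pair means with pairs that do not overlap, 2 of 5 members were higher at day 10 (1org-106b and 2org-25) and 0 lower, where 12.9% of all probes were higher and 41.5% lower. Probe 2org-25 stood at -0.11 ± 0.45 at day 10, against -1.64 ± 0.25 at day 3, a difference of 1.53 (2.89-fold). Probe 1org-106b stood at 0.55 ± 0.05 at day 10, against -0.69 ± 0.04 at day 3, a difference of 1.25 (2.37-fold). The other differences were 0.34 for 1org-93, -0.08 for 1org-106a and -0.42 for 2org-106, whose day 10 pair lay below its day 3 pair. All 5 were above the median difference of all probes, -1.22. Centring adds 1.26 to each, and then 4 of 5 were higher (all but 2org-106, at 0.84) and 0 lower, against 28.1% and 13.5% of all probes.

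In the fit over 5 arrays the difference between day 10 and day 3 passed for 2org-25 (1.53 ± 0.63, limma adjusted p = 0.033), where 8.77% of all probes passed as higher. It did not pass for 1org-106b (1.25 ± 0.63, adjusted p = 0.084). After centring it passed for 2org-25 (2.79 ± 0.54, adjusted p = 6.7e-06), 1org-106b (2.50 ± 0.54, adjusted p = 5.2e-05) and 1org-93 (1.60 ± 0.54, adjusted p = 0.015), against 21.6% of all probes. With the arrays also brought to 1 scale, 1org-93 no longer passed (1.45, adjusted p = 0.061). It did not pass for 1org-106a (1.18, adjusted p = 0.094) or 2org-106 (0.84, adjusted p = 0.24).

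**Figure D3:**
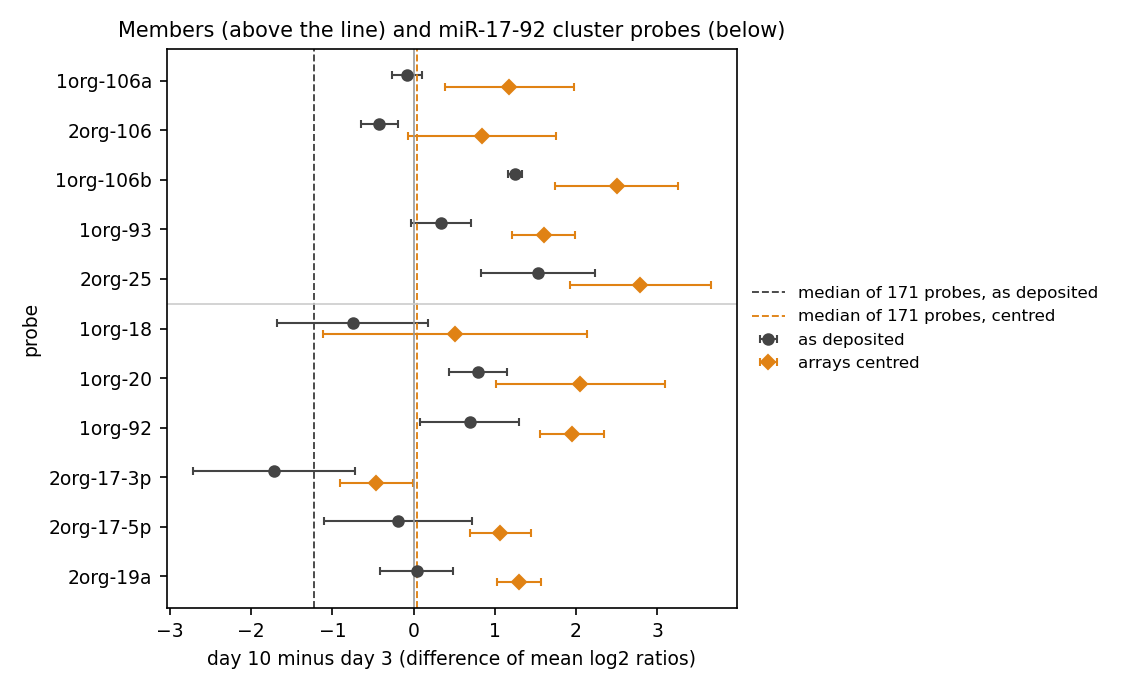
Difference of the mean log2 ratios, day 10 minus day 3, of the 5 members (upper) and 6 miR-17-92 cluster probes (lower), as deposited (circles) and centred (diamonds), where bars span the 4 differences between single arrays and dashed lines are medians of 171 probes. As deposited, 1org-106b (1.25) and 2org-25 (1.53) lie past 1, and all 5 members lie above the median of -1.22.

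Differences within an array compare the members without any array offset. Differences among the 3 probes of the Mcm7 locus varied from array to array. Probe 1org-106b minus 1org-93 was -0.89 overnight, 0.23 and -0.51 on the day 3 arrays, and 0.77 and 0.76 on the day 10 arrays. The day 10 values lay above the other 3. Probe 1org-106b minus 2org-25 was -0.76 overnight, 1.23 and 0.66 on the day 3 arrays, and 0.27 and 1.06 on the day 10 arrays, where the pairs of days 3 and 10 overlapped. Probe 1org-93 minus 2org-25 was 0.13 overnight, 1.00 and 1.17 on the day 3 arrays, and -0.51 and 0.30 on the day 10 arrays, and the day 3 pair lay above the other 3 values. Probe 2org-106 exceeded 1org-106b by 3.72 overnight, by 1.89 and 1.87 at day 3, and by 0.35 and 0.08 at day 10. That gap at day 10 was 0.21 ± 0.13, against 1.88 ± 0.01 at day 3, and the pairs did not overlap. These differences were not tested.

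**Figure D4:**
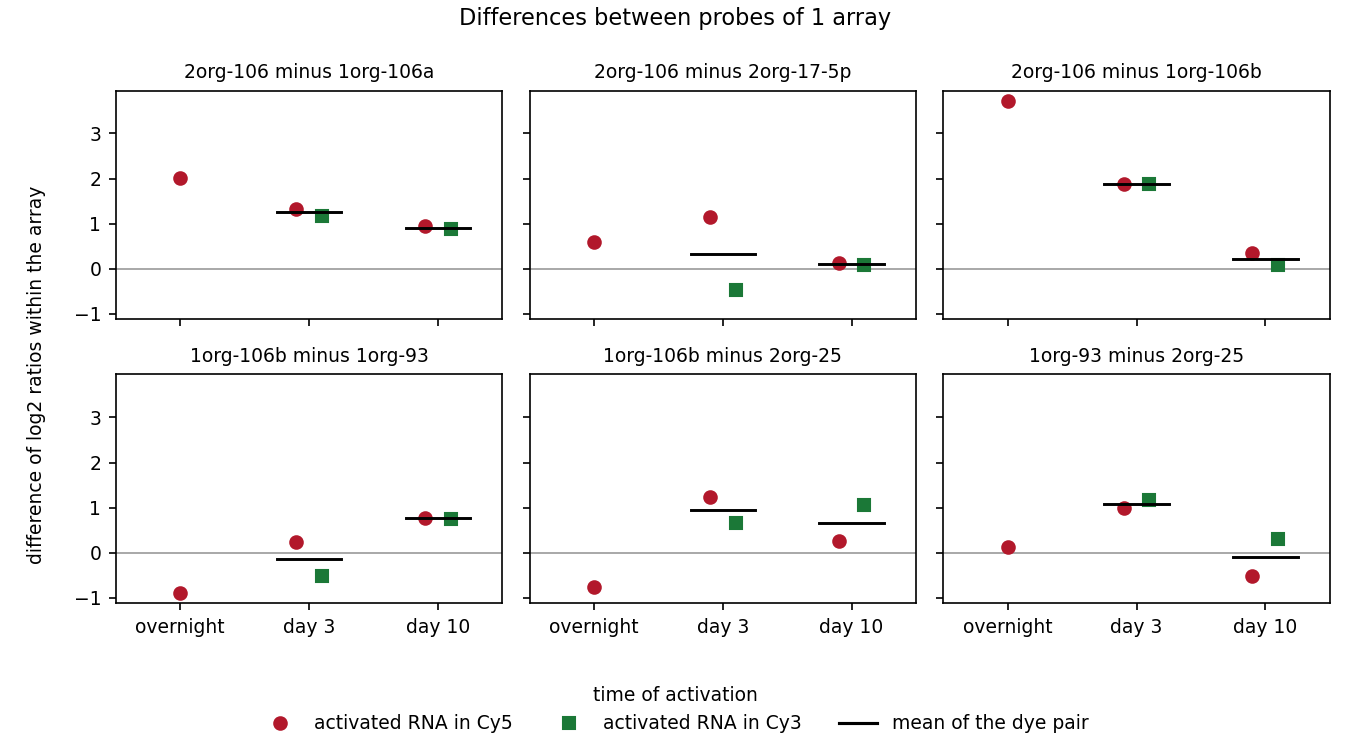
Difference of the log2 ratios of 2 probes on the same array, by time, with points coloured by the dye of the activated RNA and bars for the mean of a dye pair. The gap of 2org-106 over 1org-106a is above 0 on all 5 arrays, and that over 1org-106b is 3.72 overnight and 0.35 and 0.08 at day 10.

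Over the 3 times, with each pair averaged to 1 value per time, no member passed a test against 0. The 3 times served as the replicates, so the SE of this test holds the change between times. As deposited, 1org-155 and 1org-150, at 4.88 and -5.24 at day 3, did not pass it either (limma adjusted p = 0.77 and 0.52). By limma's test of the 3 values, 0% of all probes passed, as deposited or centred (smallest adjusted p over all probes 0.11 and 0.48), and at an unadjusted p under 0.05 there were 11 probes and no member in either. Probe 2org-106 had the mean of largest size among the members (1.57 ± 0.93, SE, adjusted p = 0.77), which was 0.98 without the overnight array, and 2org-25 was at -0.66 ± 0.93 (adjusted p = 0.85). In the fit over 5 arrays the mean of the 3 times passed for 2org-106 alone among the members (1.53 ± 0.32, limma adjusted p = 2.4e-05), with a higher ratio on 5 of 5 arrays, where 13.5% of all probes passed as higher. It also passed after centring (1.88 ± 0.27, adjusted p = 1.4e-09), against 20.5% of all probes. Without the overnight array the mean of days 3 and 10 in this fit was smaller and still passed (0.98 ± 0.32, adjusted p = 0.0081, and 0.80 ± 0.27, adjusted p = 0.011, after centring). That mean also passed as lower for 2org-25 (-0.87 ± 0.32, adjusted p = 0.019). The share of all probes that passed for the mean of days 3 and 10 was not counted, so these calls have no background beside them. The higher ratio of 2org-106 on 5 of 5 arrays holds as deposited. After centring, its day 3 array with activated RNA in Cy3 stood at -0.28.

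Beside the 6 probes of the miR-17-92 cluster, the members spanned a narrower range of ratios at day 10 (-0.21 to 0.77, against -1.20 to 1.81). At day 3 the members ran from -1.64 (2org-25) to 1.19, and the 6 probes from -0.98 (1org-92) to 2.56 (1org-18). The wider range of the 6 at day 3 rested on 1org-18, since the next highest was 2org-19a (1.01). At day 10 it rested on 1org-18 and 2org-17-3p, and the other miR-17-92 probes ran from -0.29 (1org-92) to 1.05 (2org-19a). Probe 1org-18 (miR-18) stood at 2.56 ± 0.49 at day 3 and 1.81 ± 0.44 at day 10, and 2org-17-3p, the other arm of the miR-17 hairpin, at -1.20 ± 0.04 at day 10, while no member's pair mean was above 1.19 or, at day 10, below -0.21. The members' pair means ranked 54 to 153 at day 3 and 21 to 56 at day 10, against 20 to 149 and 10 to 153 for the miR-17-92 probes. Without 1org-92, whose sequence also comes from the miR-106a cluster, the ranks of the other 5 were 20 to 132 and 10 to 153. Median ranks of the 6 were 15 overnight, 97 and 83.5 on the day 3 arrays, and 29 and 31.5 on the day 10 arrays. Those of the members were 26, 131 and 138, and 45 and 74. Like the members, 1org-20, 1org-92, 2org-17-5p and 2org-19a ranked higher overnight and at day 10 than at day 3. Probes 1org-18 and 2org-17-3p did not. Both lists share the arrays, and their difference was not tested.

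The probes most like each member were those with the smallest root mean square difference of log2 ratios over the 5 arrays, a measure that no centring alters. For 2org-106 they were 2org-17-5p (0.62), miR-20a (1org-20, 0.97) and miR-19a (2org-19a, 1.25), all of the miR-17-92 cluster, where the median over all probes was 2.43. Probe 2org-17-5p was at 2.15 overnight, 0.08 and 1.61 on the day 3 arrays and 0.81 and 0.51 on the day 10 arrays, and 2org-106 minus it was 0.60 overnight, 1.15 and -0.47 on the day 3 arrays, and 0.14 and 0.08 on the day 10 arrays. The day 3 arrays thus gave the widest gap and the only negative one. For 1org-106a they were 1org-191 (0.45), 2org-320 (0.46) and 2org-321 (0.51), and 2org-106 came in place 36 (1.33). Counted from 2org-106, 1org-106a came in place 5 at the same distance. For 1org-106b they were 1org-29c (0.49), 1org-29b (0.65) and 1org-93 (0.67). For 1org-93 they were 1org-191 (0.20), let-7d (1org-7d, 0.44) and 1org-92 (0.51). For 2org-25 they were 1org-7a (0.54), 1org-92 (0.67) and 1org-7d* (0.69). The points of each comparison share their arrays and the naive RNA.

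Among the probes with the seed of miR-25, 2org-25 differed from 1org-92 by 0.67 and from 2org-32 by 2.06 (root mean square over the arrays). Overnight the values were -0.22 for 2org-25, 0.83 for 1org-92 and -2.27 for 2org-32, each over 2-fold from the others. At day 3 the values were -1.64 ± 0.25 for 2org-25, -0.98 ± 0.45 for 1org-92 and 1.09 ± 0.74 for 2org-32, and at day 10 they were -0.11 ± 0.45, -0.29 ± 0.16 and -0.55 ± 0.32, with overlapping pairs. MiR-32-5p shares the seed but differs from miR-25-3p by 9 of 22 bases. The 6 probes of the seed AAAGUGC ran from -0.97 (1org-106b) to 2.75 (2org-106) overnight, from -0.69 to 1.19 at day 3 and from -0.21 to 0.77 at day 10. Their span was thus 3.72 overnight on the 1 array, wider than at the later times. The pair of mature sequences with 1 base of difference, miR-106a-5p and miR-17-5p, had probe differences of 0.62 (2org-106) and 1.10 (1org-106a) by root mean square.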

How the data were processed

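The authors deposited 1 log ratio per probe and array, for 171 microRNA probes and 7 other small RNA probes, with no missing value. The unit was read as log2 from the values of the deposited table. The sources used here do not state the log base, scanner, background correction, normalization or probe sequences. Signal over background is unknown, and the 5 arrays limit the precision. Groups and dyes came from the labels. Arrays with activated RNA in channel 1 were multiplied by -1. Centring subtracted each array's median over microRNA probes. Over the 3 times, pair means were tested against 0 with limma 3.58.1 (lmFit, eBayes, 2-sided, Benjamini-Hochberg threshold 0.05) in R 4.3.3, which leaves out the spread of the control. Both fits were also run on simulated data with effects equal at all 3 times and no array offsets. These data differ in both, so that run does not show how the fits behave here. Alternatives were centring, scaling, the fit over 5 arrays, dye correction, unmoderated variances, annotated probes alone and leaving out each array. Of the probes, 131 matched a RefSeq mature microRNA by name. Named probes are the members, probes numbered 17 to 20 or 92, probes with a member's seed, the 3 nearest to each member, miR-155 and miR-150. Members and lists were chosen with earlier results of these data known.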

Additional observations from a re-analysis of the deposited data

Results flagged for a closer look

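Some members had different ratios at day 10 and at day 3. In the limma fit over 5 arrays the difference, day 10 minus day 3, passed for 2org-25 as deposited (1.53) and after centring (2.79). It passed after centring but not as deposited for 1org-106b (2.50) and 1org-93 (1.60). On 1 scale it passed for 1org-106b (2.54, adjusted p = 0.0004) but not for 1org-93 (1.45, adjusted p = 0.061). Probe 1org-106b as deposited (1.25) had both day 10 arrays above 0 and both day 3 arrays below 0, and so had 1org-106a after centring (1.18), but neither difference passed. The array medians differed by -1.26 between the times, and their part in these differences was not tested.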

How the results depend on the processing

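The counts of members past 2-fold moved with centring and scale, and so did the sign of values near 0. As deposited and after centring, the overnight value and pair means of 2org-106 were above 0. Its centred day 3 arrays had opposite signs (1.04 and -0.28). Overnight, as deposited and after centring, 1org-106b was -0.97 and 0.77, 1org-93 was -0.09 and 1.66, and 2org-25 was -0.22 and 1.53. With arrays centred, members higher overnight numbered 4, against 1 as deposited, and likewise 4 with arrays on 1 scale and 4 with centring and dye correction. Dye correction alone put 1 member lower overnight (1org-106b, -1.02) against 0. In the fit over 5 arrays, 2 were higher overnight after centring and 3 on 1 scale. At day 3, members higher numbered 0 and members lower 3 with arrays centred or on 1 scale, by size or in the fit over 5 arrays, against 1 and 1. At day 10, 2 were higher with arrays centred or on 1 scale, against 0, and in the fit over 5 arrays 1 after centring and 2 on 1 scale. Between days 10 and 3, 4 were higher with arrays centred, 5 on 1 scale (51 of all 171 probes) and 1 in the fit over 5 arrays, against 2. Over the 3 times, 1 was higher in the fit over 5 arrays, as deposited or centred, and 2 on 1 scale, against 0. Without the overnight array in that fit, 1 was higher and 1 lower (2org-25), as deposited and centred. By size on 1 scale, 42 of all 171 probes were higher overnight, 24 higher and 32 lower at day 3, and 29 higher at day 10. Overnight, 27 of all probes were higher with centring and dye correction, and 123 lower with dye correction alone. For the fit on 1 scale and the mean without overnight, the share of all probes that passed was not counted. Centring or scaling in the fit over 5 arrays, its overnight counts and the mean without overnight were settings chosen after seeing the data. Leaving out each array in turn changed none of the counts as deposited at day 3, at day 10, between them or over the 3 times by limma's test of 3 values, where both members higher between days 10 and 3 were 1org-106b and 2org-25 each time. It was not run on the other counts, and the fit over 5 arrays has no residual degrees of freedom without an array of day 3 or 10. The mean gap of 2org-106 over 1org-106a ran from 1.08 (without the overnight array) to 1.42. Fitting annotated probes alone could test only 1org-93 and 2org-25. Without scanner signals, no filter on dim probes was run. No paired analysis was possible because the labels give no replicate numbers.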
